A study of Mus musculus with 36 samples.

Results

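Mitochondrial ribosomal proteins are the products of nuclear genes that are imported into mitochondria and assembled there, with ribosomal RNAs encoded by mitochondrial DNA, into the ribosome that makes the core subunits of the respiratory chain. The genes described here were chosen by name, as every entry of the expression table whose symbol begins with Mrpl or Mrps and a digit, without the 3 entries marked as pseudogenes (Mrpl23-ps1, Mrpl48-ps and Mrps36-ps1). This gave 76 of 12762 genes. By known structure 49 of them belong to the large subunit, which forms peptide bonds, and 26 to the small subunit, which reads the messenger RNA. Mrps30 and Mrps18a are counted with the large subunit because their proteins sit there despite their names. Mrps36 carries the family name, but its protein is now known as a component of the oxoglutarate dehydrogenase complex. Of the 75 ribosomal members, 46 have a counterpart in bacterial ribosomes and 29 are found only in mitochondrial ones.

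Expression was measured by mRNA-seq in B3, a mouse pre-B cell line. The Ikaros line carries a retroviral vector for haemagglutinin-tagged Ikaros, a transcription factor of lymphocyte development, fused to the ERt2 hormone-binding domain and followed by GFP, and the control line carries the same vector with ERt2 and GFP but no Ikaros. Both lines are GFP-sorted populations, and both received 4-hydroxy-tamoxifen (4-OHT) at 0.5 uM, which brings ERt2 fusion proteins into the nucleus. Each line was collected at 0, 2, 6, 12, 18 and 24 h in 3 culture batches, which makes 12 groups of 3 and 36 libraries. The batches were 1, 2 and 4 at 0 h and 1, 3 and 4 at the later times. The labels name 4-OHT for every library, whereas the study's methods describe the 0 h cells as untreated and collected on separate occasions, so a comparison with 0 h also compares occasions.

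Values are log2 expression levels after the normalization of the authors, with an arbitrary constant added, so levels are relative and only differences have a fixed meaning. A log2 difference of -1 stands for 2-fold lower, provided that the base is 2, which the table does not state. In RNA from whole cultures, less RNA per cell and fewer cells that express a gene cannot be told apart. Ikzf1, the gene of Ikaros, lay between 13.95 and 14.85 in the 18 control libraries and between 19.63 and 20.93 in the 18 Ikaros libraries, so each library went with the line in its label. All 12 B lineage markers looked for were in the table, led by Cd79a at a mean of 18.38. None of 5 T lineage markers and none of 2 plasma cell markers was in the table. The 2 of 5 myeloid markers (Itgam and Lyz2) and 3 of 5 erythroid markers (Epor, Hbb-b1 and Klf1) that were listed had means between 5.70 and 7.89. Sequencing depth cannot be read from such values.

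The 75 members with a position in the annotation were spread over 17 chromosomes and were all protein coding. Promoters of RefSeq (GRCm38.p6, 250 bases before and 50 after the start of transcription) were found for 67 members. In many mitochondrial genes the promoter holds sites for ETS family factors such as GABP, for NRF1 and for YY1. The letters CCGGAAG, an ETS type motif, were present on either strand in 35.8% of the 67 members, 21.6% of the 8586 genes of the table with a promoter and 9.9% of all 27025 genes with a promoter. The NRF1 type letters GCATGCGC were in 11.9% of members, 6.4% of genes of the table and 3.0% of all genes, and the YY1 type letters ATGGCG in 26.9%, 18.9% and 10.2%. The E-box CACGTG, which Myc binds, was in 7.5%, 11.9% and 8.1%. TGGGAA, the core that Ikaros binds, was in 28.4% of members, 26.0% of genes of the table and 28.3% of all genes. Matches of different motifs could share bases, and a match is a stretch of letters and not a measured site.

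The promoters of 3 members that the results turn on are shown with these motifs in capitals, 5′ to 3′ on the strand of the gene. Mrpl52 had the largest fall at 24 h, Mrps18b the largest change between 2 h and 24 h, and Mrpl43 was one of the few members that were higher.
Mrpl52, chr14:54426659-54426958, forward strand: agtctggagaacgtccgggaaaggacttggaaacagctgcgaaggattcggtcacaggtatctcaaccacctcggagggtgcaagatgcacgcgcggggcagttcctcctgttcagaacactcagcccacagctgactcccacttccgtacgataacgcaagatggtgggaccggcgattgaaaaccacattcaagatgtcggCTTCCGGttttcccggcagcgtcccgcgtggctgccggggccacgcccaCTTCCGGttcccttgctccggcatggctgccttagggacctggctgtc
Mrps18b, chr17:35916391-35916690, reverse strand: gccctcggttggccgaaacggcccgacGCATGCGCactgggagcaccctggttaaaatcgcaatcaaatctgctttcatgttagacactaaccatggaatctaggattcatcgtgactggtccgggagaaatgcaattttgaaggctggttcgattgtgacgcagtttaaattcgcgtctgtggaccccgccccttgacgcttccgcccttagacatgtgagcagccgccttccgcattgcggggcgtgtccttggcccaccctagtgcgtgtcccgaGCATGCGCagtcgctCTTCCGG
Mrpl43, chr19:45006393-45006692, reverse strand: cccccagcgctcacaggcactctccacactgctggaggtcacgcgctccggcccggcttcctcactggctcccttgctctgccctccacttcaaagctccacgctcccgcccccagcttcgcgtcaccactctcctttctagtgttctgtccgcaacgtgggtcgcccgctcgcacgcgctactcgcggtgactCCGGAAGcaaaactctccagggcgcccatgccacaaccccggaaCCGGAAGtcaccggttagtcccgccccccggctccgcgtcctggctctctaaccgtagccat
The capitals mark 2 ETS type matches in Mrpl52, 1 ETS type and 2 NRF1 type matches in Mrps18b and 2 ETS type matches in Mrpl43. Whether such matches go with the direction of change was not tested.

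Members of the family were well expressed in these cells. The table is adjusted for gene length, and on its scale the members' mean levels over all libraries had a median of 13.28, against 11.72 for all genes, with 74 of 76 members above that value. They ran from 7.77 for Mrpl53 to 17.19 for Mrpl52. The SD between the replicates of a group had a median of 0.19 over the members, from 0.08 for Mrpl27 to 0.54 for Mrpl53. Mrpl53 was thus the least precisely measured member.

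The first question was how far the 2 lines differed in this family along the course. Before induction the lines were close. At 0 h none of the 76 members was called, that is, had an adjusted p under 0.05 in limma, while 8.33% of all genes were called and 6 members had an unadjusted p under 0.05. The median difference (Ikaros minus control) was -0.07 on the log2 scale, with a range from -0.95 to 0.36. Of the 76 members 54 had a negative difference, and the median over all genes was -0.03. At 2 h 3 members were lower and 1 was higher, where 9.88% of all genes were lower and 9.18% higher, and the median was -0.04.

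The family then moved down in Ikaros cells. At 6 h 28 members were lower and 2 higher, with a median of -0.30, against 19.2% and 18.1% of all genes. At 12 h 38 were called, 32 of them lower and 6 higher, with a median of -0.29, against 45.8% of all genes called and 22.8% lower. At 18 h 55 were lower and 5 higher, with a median of -0.74, against 29.2% and 29.0%. At 24 h 57 were called, 55 lower and 2 higher, with a median of -0.70, against 62.9% of all genes called, 31.9% lower and 31.0% higher. The median over all genes stayed between -0.03 and 0.00 at every time. The counts at 6 h and 12 h were less firm than the later ones. In either direction 30 and 38 members were called there, against 37.3% and 45.8% of all genes. Without replicate 2 of every group (batch 2 at 0 h and batch 3 later) they fell to 12 and 17, and the count at 6 h was 14 without replicate 1. With only the 2 groups of one time in the fit they were 6 and 23. Here and below, such fits use fewer libraries, and the shares of all genes called in them are not given.

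**Figure D1:**
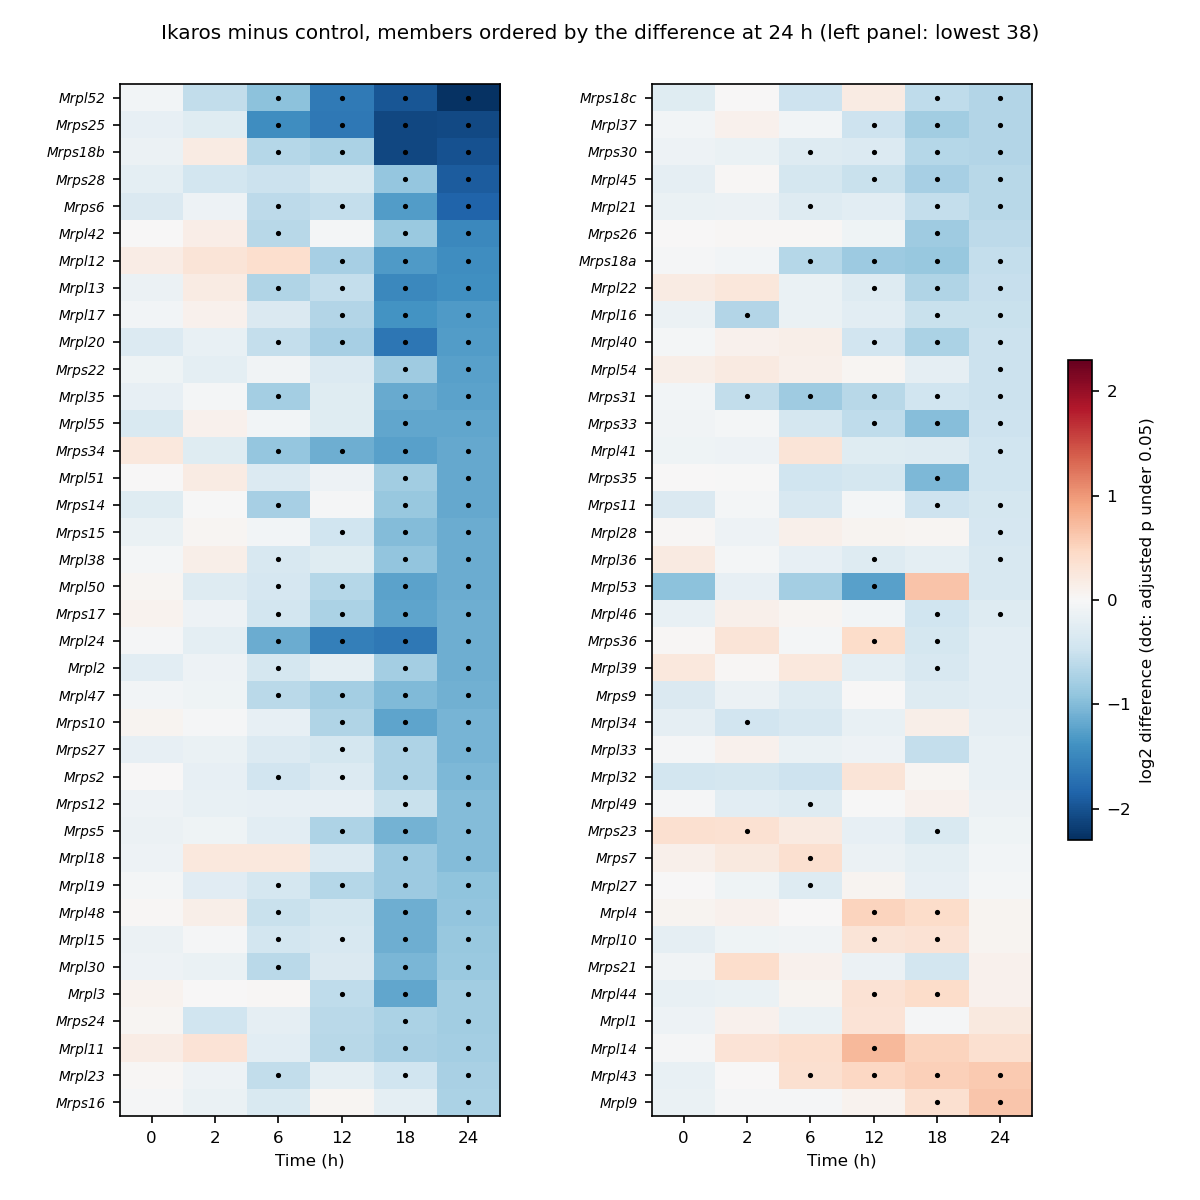
Log2 difference of each of the 76 members between Ikaros and control cells (colour, blue for lower in Ikaros cells) against time in hours, ordered by the value at 24 h, with a dot where the adjusted p is under 0.05. Blue spreads from 6 h on and is deepest at 18 h and 24 h, with 55 members called lower at each of these times, while Mrpl43 and Mrpl9 at the foot of the right panel were called higher.

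At 24 h 68 of the 76 members had a negative difference, and 27 were called and lower by at least 1 on the log2 scale. The median difference of all genes was -0.01, and their share lower by at least 1 is not given here. In 61 members all 3 Ikaros libraries lay below all 3 control libraries, and in 2 members all lay above, where 36.1% and 35.0% of all genes did so. The middle of the family lay between -1.13 and -0.35, the lower and upper quartile. Between 18 h and 24 h, 50 members were called lower at both times. Taken singly, 29.2% of all genes were called lower at 18 h and 31.9% at 24 h, and the share at both times is not given here.

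The fall was seen in every culture batch. Within batches 1, 3 and 4 the median difference at 24 h was -0.76, -0.77 and -0.76, with 66, 70 and 69 of the 76 members lower in the Ikaros library. At 18 h the within-batch medians were -0.59, -0.63 and -0.84. At 12 h they were -0.11, -0.43 and -0.42, and at 6 h -0.38, -0.14 and -0.27. At 2 h they were -0.03, -0.03 and 0.00, with 42, 43 and 38 of the 76 members lower, so about as many members lay on either side. Before induction there was a small lean downward. At 0 h the medians within batches 1, 2 and 4 were -0.07, -0.09 and -0.10, with 53, 49 and 49 members lower. Over all genes they were -0.03, -0.04 and -0.02.

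The libraries can also be read one at a time, as the median of the 76 members relative to each member's own mean over all libraries. At 24 h the Ikaros libraries of batches 1, 3 and 4 stood at -0.65, -0.58 and -0.60, and the control libraries at 0.10, 0.14 and 0.20. At 18 h the Ikaros libraries stood at -0.53, -0.44 and -0.45, and the control libraries at 0.08, 0.23 and 0.44. At 2 h both lines covered the same range, from 0.05 to 0.34 in Ikaros and from 0.07 to 0.38 in control cells. The control libraries of batch 4 were the highest of their group from 2 h to 24 h, and the median difference at 24 h was as large within batches 1 and 3 as within batch 4.

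The second question was which line had moved. From 2 h to 24 h, which involves no 0 h library, 58 members fell and 4 rose in Ikaros cells, with a median of -0.82, against 30.4% and 30.2% of all genes. In control cells none of the 76 was called over the same interval by limma, 3 members had an unadjusted p under 0.05, the median was -0.04, and 0.454% of all genes were called. The test of the difference itself, the change of the Ikaros minus control difference from 2 h to 24 h, called 46 members, 44 down and 2 up, with a median of -0.68, against 47.3% of all genes, 24.0% down and 23.3% up. Measured from 0 h, the numbers of members whose difference had changed at 2, 6, 12, 18 and 24 h were 1, 8, 21, 48 and 47, against 3.10%, 15.9%, 29.7%, 43.0% and 48.4% of all genes. At 24 h 45 of the changes were downward and 2 upward, where 24.2% of all genes changed in each direction. An F test over the 5 changes from 0 h called 55 members and 59.8% of all genes. Leaving out replicate 2 gave 1, 4 and 25 members for the changes to 6, 12 and 18 h, and 29 in the F test. The replicate block raised the count at 6 h to 13.

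Single steps showed when Ikaros cells changed. From 6 h to 12 h 10 members fell and 2 rose, where 9.87% and 10.9% of all genes did so. From 12 h to 18 h 22 fell and 2 rose, where 13.5% and 12.0% of all genes did so. From 2 h to 6 h 7 members fell and none rose (5.59% and 5.58% of all genes), and from 18 h to 24 h 3 fell and none rose (4.13% and 1.65%). From 0 h to 2 h 2 members fell and 3 rose (9.61% and 9.54%), and a replicate block on culture batch called 22. These steps share libraries with their neighbours. Without 1 replicate of each group the count from 12 h to 18 h was between 5 and 22, and from 6 h to 12 h between 0 and 11.

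In control cells none of the 5 steps called a member in limma, and 0.0470%, 0.0392%, 1.13%, 0.00% and 0.00% of all genes were called in order of time. Members with an unadjusted p under 0.05 numbered 9, 7, 13, 1 and 7 in the same order. Blocking on culture batch called 4 members from 6 h to 12 h. In both lines most members were higher at 2 h than at 0 h, with a median of 0.13 in control and 0.21 in Ikaros cells, which is the step that crosses collection occasions.

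Members differed in when an unbroken run of calls as lower began. A lasting fall, counted from the first time after which the member was called lower at every later time, began in 1 member at 2 h (Mrps31). It began in 16 members at 6 h, in 13 at 12 h, in 20 at 18 h and in 5 at 24 h, and 21 members had none. Some members had also been called lower before the run began. Mrpl35 and Mrpl42 were called lower at 6 h, not at 12 h and again from 18 h. Mrpl16 was called lower at 2 h and then from 18 h, and Mrpl36 at 12 h and then at 24 h. The start of a lasting fall is thus not always the first fall. Over all genes the shares with a lasting fall from 2, 6, 12, 18 and 24 h were 3.16%, 5.93%, 6.54%, 7.87% and 7.38%. A lasting rise began at 6 h in Mrpl43 and at 18 h in Mrpl9, as it did in 5.25% and 7.83% of all genes. Over all 6 times 62 members were called lower at some time and higher at none, 7 were called higher and never lower, 2 went both ways and 5 were called at no time. Over all genes these shares were 38.6%, 36.1%, 7.93% and 17.3%. The onsets depend on the threshold, and a later onset was not tested against an earlier one.

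The largest falls at 24 h were those of Mrpl52, Mrps25, Mrps18b, Mrps28, Mrps6, Mrpl42, Mrpl12 and Mrpl13. Mrpl52, a large subunit protein with no bacterial counterpart, was measured at 17.97, 17.83 and 18.19 in the control libraries of batches 1, 3 and 4 and at 16.02, 15.81 and 15.33 in the Ikaros libraries. All Ikaros libraries lay more than 1 unit below all control libraries. The difference was -2.27, or 4.84-fold lower (limma, SE 0.26, adjusted p 2.01e-08). At 0 h the member had been level in both lines, with control libraries at 17.64, 17.78 and 17.78 and Ikaros libraries at 17.83, 17.26 and 17.89. The differences at 6, 12 and 18 h were -0.95, -1.62 and -1.96. Mrpl52 (chromosome 14, 54426909 to 54429756, forward strand) was also the most highly expressed member.

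Mrps25, a small subunit protein found only in mitochondria, had the largest difference of the family at 6 h. Its Ikaros libraries stood at 11.12, 11.38 and 11.55 at 6 h and its control libraries at 12.81, 12.54 and 12.96, a difference of -1.42 (limma, SE 0.24, adjusted p 3.57e-05). The groups were already apart at that time. At 24 h the control libraries stood at 12.41, 12.53 and 12.82 and the Ikaros libraries at 10.36, 10.58 and 10.62, a difference of -2.07, or 4.19-fold lower (limma, SE 0.24, adjusted p 2.44e-08). Mrps25 (chromosome 6, 92169525 to 92184033, reverse strand) has exons that overlap Nr2c2 on the other strand, and Nr2c2 had a difference of -0.01 (SE 0.11) at 24 h.

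Mrps18b had its largest drop between 12 h and 18 h. It is 1 of 3 mammalian relatives of a single bacterial small subunit protein and holds a place of its own in the small subunit. It was called lower from 6 h on, with differences of -0.65 and -0.72 at 6 and 12 h. In Ikaros cells the 12 h libraries of batches 1, 3 and 4 stood at 12.37, 12.77 and 12.52, the 18 h ones had dropped to 11.41, 11.52 and 11.30, and the 24 h ones were level with those (11.25, 11.40 and 11.23). The control libraries at 24 h stood at 13.30, 13.25 and 13.33, far above the Ikaros ones. The difference at 24 h was -2.00, or 4.00-fold lower (limma, SE 0.14, adjusted p 1.97e-12), and its change from 2 h to 24 h was the largest of the family at -2.18 (SE 0.20, adjusted p 1.21e-09). Its paralogs fell less. Mrps18a, in the large subunit, had a difference of -0.55 at 24 h (SE 0.16, adjusted p 0.00353), and Mrps18c, which takes the place of the bacterial protein, had -0.68 (SE 0.19, adjusted p 0.00306). The 3 paralogs were not tested against each other. Mrps18a had been called lower from 6 h, at -0.66, its difference was no larger at 24 h, and its call at 24 h was lost without replicate 2, at -0.58. Mrps18b (chromosome 17, 35910379 to 35916389, reverse strand) overlaps the exons of Gm16279 on the other strand, which was also lower, by -1.79.

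Mrps28 and Mrps6 are small subunit proteins with bacterial counterparts. Mrps28 stood at 15.85, 15.62 and 16.50 in control and at 14.00, 14.36 and 13.85 in Ikaros libraries at 24 h, a difference of -1.92 (limma, SE 0.32, adjusted p 7.22e-06), and at 12 h its difference had been -0.35. Mrps6 stood at 12.78, 12.54 and 12.58 in control and at 10.93, 10.84 and 10.61 in Ikaros libraries, a difference of -1.84 (SE 0.12, adjusted p 5.20e-13). The groups were apart in both genes. Mrps6 shares exons on the same strand with Slc5a3, a myo-inositol transporter gene that was lower by -1.52, so reads of the 2 genes cannot be told apart with certainty.

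Mrpl42, Mrpl12 and Mrpl13 are large subunit proteins. Mrpl12 forms the flexible stalk that recruits translation factors and is also known to bind the mitochondrial RNA polymerase. It stood at 17.28, 17.03 and 16.62 in control and at 15.43, 15.55 and 15.67 in Ikaros libraries at 24 h. The groups were nearly 1 unit apart at their closest, and the difference was -1.43 (limma, SE 0.26, adjusted p 2.54e-05). Its difference had been above 0 at 2 h and 6 h, at 0.29 and 0.39, neither of which was called, and was -0.77 at 12 h. Mrpl42 stood at 16.35, 16.43 and 16.74 in control and 14.98, 15.17 and 14.91 in Ikaros libraries, a difference of -1.49 (SE 0.13, adjusted p 2.94e-10). Mrpl13 stood at 12.92, 13.01 and 13.12 in control and 11.47, 11.71 and 11.63 in Ikaros libraries, a difference of -1.41 (SE 0.22, adjusted p 2.50e-06). Mtbp, whose exons overlap those of Mrpl13 on the other strand, differed by -1.22.

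The 2 rises at 24 h were smaller than these falls. Mrpl9, a large subunit protein with a bacterial counterpart, stood at 13.34, 13.30 and 13.53 in control and at 14.10, 13.86 and 14.11 in Ikaros libraries, a difference of 0.64, or 1.55-fold higher (limma, SE 0.11, adjusted p 1.76e-05). Mrpl43, a large subunit protein found only in mitochondria, stood at 14.78, 14.64 and 14.76 in control and at 15.42, 15.10 and 15.45 in Ikaros libraries, a difference of 0.60, or 1.51-fold higher (SE 0.12, adjusted p 0.000127). The groups did not overlap in either gene. From 6 h to 18 h the difference of Mrpl43 was 0.36, 0.47 and 0.54. The change from 2 h to 24 h was 0.65 for Mrpl9 and 0.60 for Mrpl43 (adjusted p 0.00125 and 0.00589), and that of Mrpl43 was lost without replicate 1 (0.54) or 2 (0.57). Mrpl43 overlaps the exons of Peo1, the mitochondrial DNA helicase, on the other strand, and Peo1 was lower by -1.43 (SE 0.17, adjusted p 2.52e-08). The 2 genes thus went opposite ways.

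**Figure D2:**
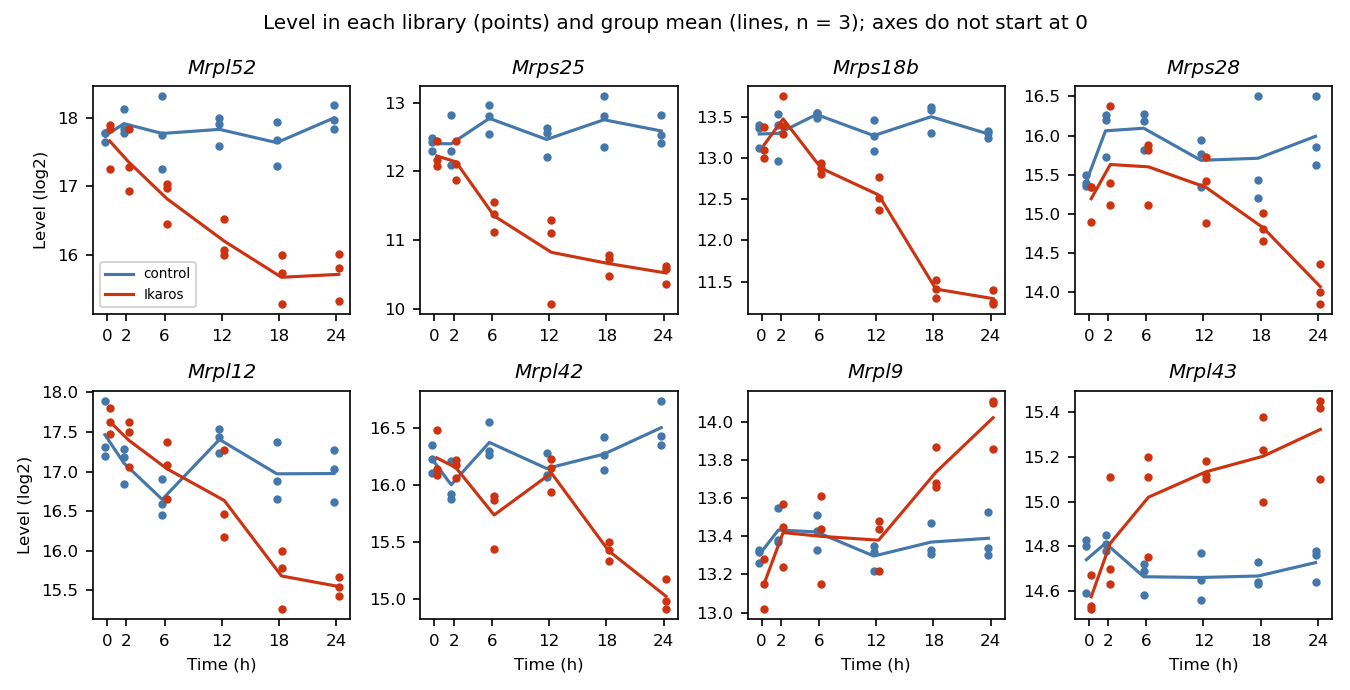
Level (log2) of 8 members in each library (points) and mean of each group (lines, n = 3) against time in hours, with blue for control and red for Ikaros cells. Mrps25 fell from 6 h and Mrps18b mainly from 12 h to 18 h, Mrps28 and Mrpl42 reached their lowest level at 24 h, and Mrpl9 and Mrpl43 were higher in Ikaros cells at 24 h.

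At 2 h, 4 members were called. Mrpl16, a large subunit protein near the peptide bond centre, stood at 13.58, 13.49 and 13.50 in control and at 12.93, 12.87 and 12.76 in Ikaros libraries, a difference of -0.67 (limma, SE 0.13, adjusted p 0.00044). It was also lower at 18 h and 24 h, by -0.51 each time. Mrps31, a mitochondrial small subunit protein, differed by -0.56 (SE 0.18, adjusted p 0.024) and remained lower at each later time, although 1 Ikaros library lay above 1 control library at 24 h. Mrpl34 was lower by -0.44 (SE 0.16, adjusted p 0.0488) with control libraries from 16.18 to 16.27 and Ikaros libraries from 15.58 to 16.09. Mrps23 was higher by 0.35 (SE 0.12, adjusted p 0.045) and was called lower at 18 h, at -0.35. The calls of Mrps31, Mrpl34 and Mrps23 at 2 h were lost without replicate 1 or 2, when only the 2 h groups were fitted, and when a trend with GC content and length was removed.

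Proteins of the factor-binding and catalytic parts of the large subunit did not all move alike at 24 h. Mrpl11, at the stalk base, had a difference of -0.79 (limma, SE 0.19, adjusted p 0.000682) and Mrpl3, which reaches towards the peptide bond centre, -0.80 (SE 0.21, adjusted p 0.00184), a call that was lost without replicate 2, at -0.69. Mrpl10, which anchors the Mrpl12 stalk, stood at 13.29, 13.44 and 13.45 in control and 13.50, 13.42 and 13.47 in Ikaros libraries, and the groups overlapped (difference 0.07, SE 0.10). Mrpl4, which lines the exit tunnel, had a difference of 0.06 (SE 0.11), and Mrpl44, which has an RNase III fold, 0.09 (SE 0.11). These 3 were higher in Ikaros cells at 12 h, with 0.29, 0.51 and 0.33, and again at 18 h, with 0.33, 0.42 and 0.42. Mrps30 was lower at 24 h by -0.68 (SE 0.10, adjusted p 1.32e-06).

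Among small subunit proteins, Mrps12 at the decoding centre was lower by -1.0 (limma at 24 h, SE 0.18, adjusted p 2.73e-05) and Mrps2 by -1.04 (SE 0.12, adjusted p 1.15e-08). Mrps22 and Mrps34, both known from inherited defects of mitochondrial translation, were lower by -1.25 (SE 0.16, adjusted p 1.64e-07) and -1.18 (SE 0.10, adjusted p 9.20e-11). Mrps16, known from the same kind of defect, was lower by -0.72 (SE 0.21, adjusted p 0.00428), with control libraries at 15.96, 15.87 and 16.49 and Ikaros libraries at 15.52, 15.54 and 15.10. That call was lost without replicate 3, at -0.39. Mrps34 was lower from 6 h on, at -0.89, and shares exons on the same strand with Nme3, which was higher by 1.14 at 24 h. Mrps36, the member outside the ribosome, had a difference of -0.25 (SE 0.17, adjusted p 0.205) at 24 h, after 0.42 at 12 h and -0.41 at 18 h, both of which were called.

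The 5 members called at no time were Mrpl1, Mrpl32, Mrpl33, Mrps9 and Mrps21. Their differences at 24 h were 0.22, -0.17, -0.17, -0.24 and 0.09, with SE of 0.14, 0.23, 0.25, 0.16 and 0.20. In all 5 members these errors leave room for changes of a size that was called at 24 h, such as that of Mrpl46 at -0.30. In Mrpl1 that room was on the side of a rise. In Mrps9 the 3 Ikaros libraries, from 14.61 to 14.65, lay just below the control libraries, from 14.72 to 15.14.

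Both subunits and both origins took part. At 24 h 31.9% of all genes were called lower and 31.0% higher, by any amount. Their share lower by at least 1 is not given here. At that time 35 of 49 large subunit members were lower and 2 higher, with a median of -0.64 and 14 lower by at least 1. Of 26 small subunit members 20 were lower and none higher by limma, with a median of -1.0 and 13 lower by at least 1. Of 46 members with a bacterial counterpart 34 were lower and 1 higher (median -0.80), and of 29 found only in mitochondria 21 were lower and 1 higher (median -0.60). The ranges of the classes overlapped almost fully, from -2.27 to 0.64 in the large and from -2.07 to 0.09 in the small subunit, and the classes were not tested against each other. At 18 h the medians were -0.73 and -0.82 for the large and small subunit, and -0.71 and -0.80 for the bacterial and the mitochondrial class, so the order of the 2 origins was the reverse of that at 24 h.

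**Figure D3:**
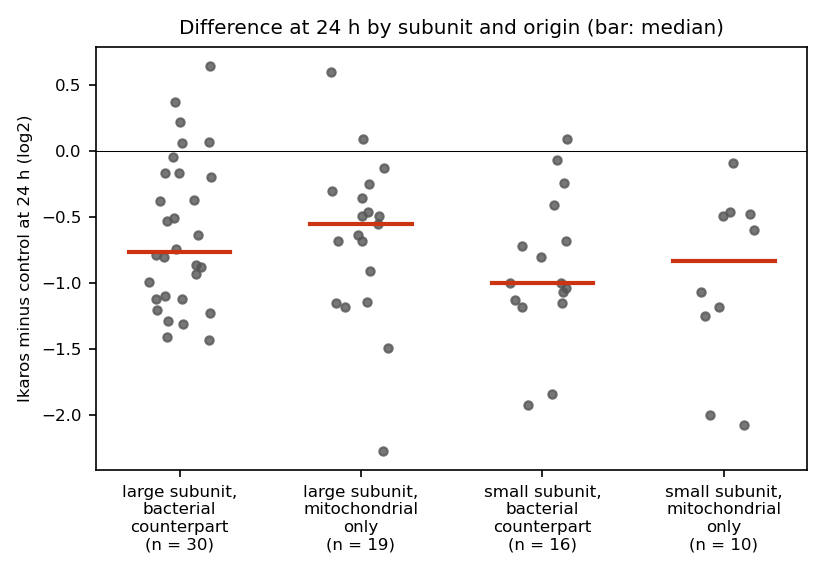
Log2 difference between Ikaros and control cells at 24 h for each ribosomal member (points), by subunit and by whether the protein has a bacterial counterpart, with the median of each class as a red bar. In all 4 classes the median lies below 0 and the points of the classes overlap widely.

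The promoter motifs were also counted in the members that fell and in the others. The ETS type motif was in 33.3% of the 48 promoter-matched members called lower at 24 h and in 42.1% of the other 19. The NRF1 type motif was in 6.2% and 26.3%, the YY1 type in 31.2% and 15.8%, the E-box in 10.4% and 0.0%, and the Ikaros core in 27.1% and 31.6%. These shares rest on 24, 8, 18, 5 and 19 members with the motif and were not tested.

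Other genes that the mitochondrial ribosome depends on are given as counts beside the family, to be read against the 31.9% of all genes that were lower and 31.0% that were higher at 24 h. Of 7 mitoribosomal proteins that do not carry the family name 5 were lower at 24 h and none higher, with a median of -0.74. They included the small subunit GTPase Dap3 (-0.74, SE 0.12, adjusted p 3.53e-06) and Ptcd3 (-1.55, SE 0.11, adjusted p 2.25e-12). Of 13 translation factors 9 were lower and 1 higher (median -0.46). Tufm, the elongation factor that delivers charged tRNA, was lower by -0.93 (SE 0.07, adjusted p 1.80e-11), and the initiation factor Mtif3 was the one that was higher, by 0.97 (SE 0.15, adjusted p 2.24e-06). Of 28 entries for assembly and rRNA modification factors 15 were lower and 1 higher (median -0.57). They included falls of -2.21 in Fastkd2 and -1.76 in Noa1 and a rise of 1.00 in Mterfd2. Nsun4 had more than 1 entry, with -1.25 (SE 0.51, called lower) in 1 and 0.15 (SE 0.13, not called) in another.

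Of 20 genes that charge mitochondrial tRNA 13 were lower, among them the synthetase genes Yars2 (-2.20) and Nars2 (-1.80), and none higher (median -0.62), against the same 31.9% and 31.0% of all genes. Of 10 genes that copy mitochondrial DNA or serve its expression 8 were lower and none higher (median -0.75). They included Tfam, which packages that DNA, at -0.59, and Polrmt, its RNA polymerase, at -0.48. Of 9 measured regulators of mitochondrial biogenesis 5 were lower and 1 higher (median -0.53). The coactivator genes Pprc1 and Ppargc1b fell by 3.46 and 3.78, Myc by 2.52 and Nrf1 by 0.82 on the log2 scale, while Gabpa, the DNA-binding part of GABP, rose by 0.39 (SE 0.16, adjusted p 0.0381). Yy1 had a difference of 0.32 that was not called (adjusted p 0.0566).

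Transcripts of mitochondrial DNA itself were listed for 21 genes. At 24 h 9 were lower and 1 higher, against 31.9% and 31.0% of all genes, with a median of -0.20 and a range from -1.17 to 2.82. They were not tested against the family. The ribosomal RNAs mt-Rnr1 and mt-Rnr2, which pair with the family in the ribosome, had differences of -0.36 (SE 0.16, adjusted p 0.0442) and -0.09 (SE 0.15, adjusted p 0.611) at 24 h, and both were lower at 18 h, at -0.55 and -0.46 (adjusted p 0.00358 and 0.00846). Per the labels, mRNA was isolated with oligo dT beads, which measure such RNAs and the mitochondrial tRNAs poorly. The one transcript that was higher was a tRNA, mt-Tw, with an SE of 0.90.

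Ribosomal proteins of the cytosol gave a different count at 24 h. Of 76 genes 4 were lower and 5 higher, with a median of 0.01, against 55 and 2 of the 76 mitochondrial ones. At 12 h 16 were lower and 1 higher with the same median as the mitochondrial family, -0.29. At 18 h 19 were lower and 2 higher with a median of -0.26. The share called lower was thus near or below that of all genes (22.8% at 12 h and 29.2% at 18 h). Differences below 0, called or not, were found in 68 of the 76 cytosolic genes at 12 h and 65 at 18 h. In the mitochondrial family they were found in 61 and 65. The change of the difference from 2 h to 24 h was called in 1 cytosolic gene in each direction, against 44 down and 2 up in the mitochondrial family. Within the lines, the cytosolic median from 18 h to 24 h was 0.06 in Ikaros and -0.25 in control cells. From 2 h to 24 h it was -0.18 in Ikaros and -0.23 in control cells. No cytosolic gene was called in control cells over either interval. The difference of 0.01 at 24 h thus does not mean that the cytosolic genes stayed level in Ikaros cells. The 2 families were not tested against each other.

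**Figure D4:**
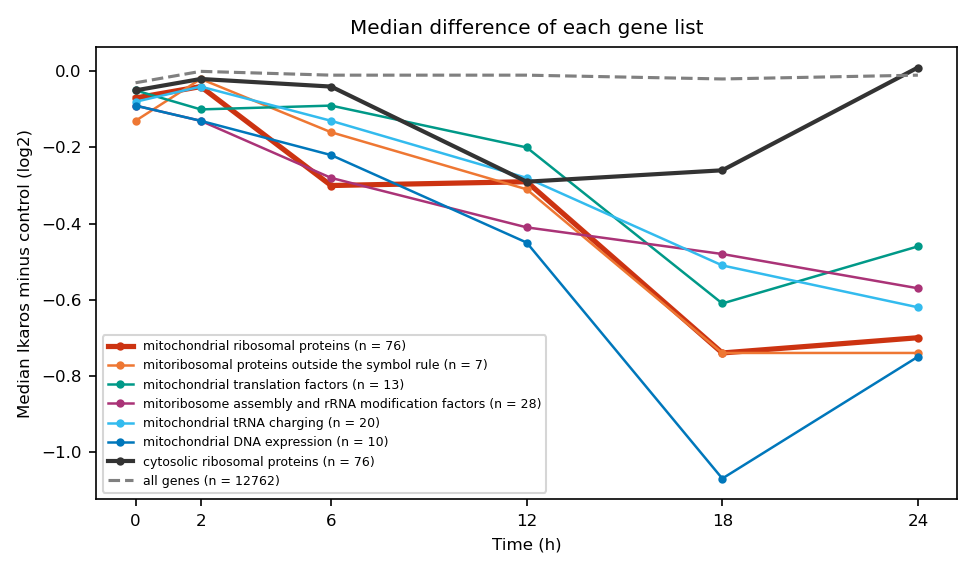
Median log2 difference between Ikaros and control cells of the 76 mitochondrial ribosomal protein genes (thick red), related mitochondrial gene lists, the 76 cytosolic ribosomal protein genes (thick black) and all genes (dashed) against time in hours. The mitochondrial family reached -0.74 at 18 h and -0.70 at 24 h, while the cytosolic one stood at -0.26 and 0.01 and all genes stayed near 0.

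Some members share exons with another gene. In 7 members this was on the same strand and in 27 on the other, and the strand setting of the counting is not stated. Without the 31 members that overlap another gene and the 1 without a position, 44 members were left, which changed the share called lower by over 1.5 times only at 2 h, from 3.9% to 6.8%. Mrpl46 and Mrps11 are neighbours whose exons overlap on opposite strands, and both were lower at 24 h. Their differences were -0.30 and -0.41 (adjusted p 0.0397 and 0.0401 in limma).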

How the data were processed

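Messenger RNA was measured in 36 libraries of 12 groups (n = 3) taken from the sample labels. The authors trimmed the reads, mapped them with TopHat2 to mm10 keeping unique best hits, assigned them to genes with HTSeq, adjusted GC content and gene length effects with cqn and corrected library preparation with a non-parametric ComBat (versions not given in the sources used here). The deposited values are log2 levels after these steps, shifted so that the lowest value of the table is 1. No counts were used here, so counting error is unknown, and precision is limited by 3 libraries per group. ComBat removed variation before deposition, so standard errors may be too small. Any pair of libraries had at most 0.384% identical values. Library medians were 11.70 to 11.73.

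The whole table of 12762 genes entered one limma model (limma 3.58.1, R 4.3.3) with a mean per group (24 residual degrees of freedom). P-values are two-sided, adjusted by Benjamini-Hochberg over all genes and called under 0.05. The scripts were tested on simulated data. In the labels a control and an Ikaros culture of each time share a batch number, which pairs the libraries. Deviations of the 18 pairs correlated between -0.062 and 0.507 (median 0.128, with 12 above 0.1). The block on batch is an alternative, beside a low-value filter, quantile normalization, eBayes with trend and robust settings, fits of the compared groups alone and omission of each replicate. Removal of a GC and length trend and omission of members with overlapping exons were added after the data were seen.

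The family, subunit classes and gene lists were chosen with earlier results of these data known. Members were named for the largest differences at 24 h (up to 8 per direction), at 2 h (up to 4) and from 2 h to 24 h (up to 3), among called members and, for the first 2 groups, without overlap between libraries, for their role, or because no time called them. Positions are from GENCODE M21 (GRCm38, the build of mm10) and promoters from RefSeq GRCm38.p6.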

Additional observations from a re-analysis of the deposited data

Results flagged for a closer look

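The Ikaros minus control difference changed between 2 h and 24 h in 46 members (limma, adjusted p under 0.05 for the change itself). These include 19 of the 33 members named above. The largest downward changes were -2.18 in Mrps18b, -1.80 in Mrps25, -1.73 in Mrps6, -1.72 in Mrpl52, -1.72 in Mrpl12, -1.64 in Mrpl42, -1.60 in Mrpl13 and -1.49 in Mrps28. Smaller ones were -1.11 in Mrpl11, -1.02 in Mrps22, -0.90 in Mrps34, -0.86 in Mrps2, -0.82 in Mrps12, -0.81 in Mrpl3, -0.68 in Mrps18c, -0.53 in Mrps30 and -0.44 in Mrps23. Upward changes were 0.65 in Mrpl9 and 0.60 in Mrpl43. The groups hold 3 libraries each, so no single library was tested against its group.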

How the results depend on the processing

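With a replicate block on culture batch, which follows the pairing of the libraries, members called numbered 2 at 0 h (main 0), 13 for the change from 0 h to 6 h (8), 22 from 0 h to 2 h in Ikaros cells (5) and 4 from 6 h to 12 h in control cells (0). The block moved no other count by over 1.5 times and changed no call of a named member. With only the compared groups fitted, 1, 1, 6 and 23 members were called at 0, 2, 6 and 12 h (0, 4, 30 and 38), 0 and 4 for the changes from 0 h to 2 h (1) and 6 h, and 0 for the Ikaros steps 0 to 2 h, 2 to 6 h (7) and 6 to 12 h (12). Removing the GC and length trend called 1 member at 0 h, 2 at 2 h and 0 for the change from 0 h to 2 h, and moved the median differences at 0, 2 and 24 h to -0.02, 0.0046 and -0.68 (-0.07, -0.04 and -0.70). The low-value filter gave a median of -0.72 at 24 h, quantile normalization called 0 members for the change from 0 h to 2 h, and omission of members with overlapping exons gave 6.8% lower at 2 h (3.9%).

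Without 1 replicate of each group, members called at 0, 2, 6 and 12 h ranged from 0 to 1, 1 to 6, 12 to 32 and 17 to 33. For changes from 0 h to 2, 6, 12 and 18 h they were 0 each time, 1 to 8, 4 to 16 and 25 to 44, and 29 to 53 in the F test (55). In Ikaros cells the steps in order of time gave 0 to 1, 1 to 2, 0 to 11, 5 to 22 and 0 to 1, and in control cells the step from 6 h to 12 h gave 0 to 3. The median at 24 h lay between -0.77 and -0.68. Small differences at 24 h that changed sign were those of Mrpl10 (between -0.0037 and 0.12), Mrpl4 (as low as -0.0039 without replicate 2), Mrpl32 (between -0.40 and 0.16) and Mrps21 (between -0.14 and 0.23), none of them called. Over all alternatives 231 of 284 summary values stayed within 1.5 times of the count or 1 SD of the median reported, 320 of 341 values of named members kept their direction and side of the threshold, and the causes of the other changes were not tested. The values used here carry no depth, and the study states only a target for it, so counting precision was not assessed.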
